A study of Mus musculus with 22 samples.

Results

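A set of 9 genes of the excitatory postsynaptic density were followed in the anterior cingulate cortex (ACC): the scaffold genes Dlg4, Dlg2, Dlg3, Dlg1, Dlgap1, Shank1, Shank2 and Shank3, and the kinase gene Camk2a. They are the 9 of 37786 genes in the count table whose symbol is in that list, each in 1 row, and all 9 passed the minimum of 10 counts in at least 10 mice. RNA of bulk ACC tissue was sequenced from 12 control and 10 stimulated male adult C57BL/6J wildtype mice. The mice were 8 weeks old when the procedures began and were housed singly after surgery. Every mouse, control or stimulated, had received AAV5-CaMKIIa-ChR2(H134R)-EYFP in both basolateral amygdalae (BLA) and an optic fibre in the ACC of 1 side, while the tissue was taken from both sides. The opsin was thus driven by a CaMKIIa promoter in amygdala neurons, whose axons were lit in the ACC. The stimulated mice received pulsed blue light in 9 sessions, and the light stayed off in the controls. The comparison asks whether repeated activation of this input is accompanied by a different level of these mRNAs in the target tissue.

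Dlg4 encodes PSD-95, the best known scaffold of the excitatory synapse. PSD-95 and its relatives PSD-93 (Dlg2), SAP102 (Dlg3) and SAP97 (Dlg1) are membrane-associated guanylate kinases (MAGUKs), which hold glutamate receptors at the membrane through PDZ domains. Dlgap1 encodes GKAP, the bridge between the MAGUKs and the Shank proteins, and Shank1, Shank2 and Shank3 form the deeper layer that reaches the actin cytoskeleton of the spine. Camk2a encodes the alpha subunit of calcium/calmodulin-dependent kinase II, the most abundant enzyme of the density and a central player in long-term potentiation. The mRNAs of Camk2a, Shank1 and Dlg4 are known to be carried into dendrites.

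Library numbers in the labels go from 1 to 23 and skip 7: controls 1 to 6 hold library numbers 1 to 6, stimulated mice 1 to 4 numbers 8 to 11, controls 7 to 12 numbers 12 to 17 and stimulated mice 5 to 10 numbers 18 to 23. These 2 runs of consecutive numbers (1 to 11 and 12 to 23) differed widely in expression, and the run was a term in the model because the study adjusted for batch. The study made its mice in 2 batches, but the labels do not say which mouse belonged to which, and a run is not called a batch here. Libraries held 23090483 to 43668462 counts, and the 9 genes had between 1012 (Shank3) and 141035 (Camk2a) counts in a library. Markers of the tissue were detected throughout: all 6 neuronal and all 6 excitatory neuron markers passed the count minimum, and none of them was at 0 in any mouse. In bulk tissue, fewer cells of a type and less RNA per cell cannot be told apart.

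Before adjustment, oligodendrocyte markers and some neuronal markers differed between the groups, and no marker passed the adjustment over all genes. The summed level of 6 oligodendrocyte markers ranged from 3481 to 19204 CPM (counts scaled to a library of 1e6) in the controls of the second run and from 2281 to 4460 CPM in its stimulated mice, and from 3121 to 6162 CPM and 3285 to 5702 CPM in the first run. Control 9 (19204 CPM) and control 11 (14160 CPM) stood apart from the other mice. All 6 oligodendrocyte markers were lower in the stimulated mice with an unadjusted p under 0.05, which 11.5% of all genes had, and with adjusted p of 0.333 to 0.416 (edgeR). None of the 6 astrocyte, 6 microglia or 6 endothelial markers had an unadjusted p under 0.05, and 1 of 6 neuronal (Stmn2), 2 of 6 excitatory (Slc17a7 and Neurod2) and 2 of 6 inhibitory neuron markers (Slc32a1 and Sst) did, all 5 of them higher in the stimulated mice, with 0.329 the smallest adjusted p (Slc32a1). In all, 6 of 6 neuronal markers were higher, and 5 of 6 excitatory and 5 of 6 inhibitory ones. Lower were 6 of 6 astrocyte, 5 of 6 endothelial and 1 of 6 microglia markers. The mitochondrial share of the counts was 0.982% to 2.80% in the stimulated mice and 1.04% to 4.81% in the controls, with control 1 (4.41%) and control 2 (4.81%) the highest. The part of these values in the results below was not tested beyond leaving out the mice named.

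The 4 Dlg genes and the 3 Shank genes are paralogs, and the reads were 50 bases long, so it matters whether a read can be assigned to 1 of them. In the longest GENCODE M21 coding sequence of each gene, the longest identical stretch between 2 Dlg genes or 2 Shank genes was 26 bases, reached by 3 pairs. The 50-base windows around these stretches are shown because they hold the longest identical coding stretches; capitals mark that unbroken stretch, flanking bases can be shared too, and positions are counted from the first base of the coding sequence.
Dlg4, coding bases 1081 to 1130: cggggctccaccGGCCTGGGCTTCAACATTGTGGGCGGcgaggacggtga
Dlg2, coding bases 1591 to 1640: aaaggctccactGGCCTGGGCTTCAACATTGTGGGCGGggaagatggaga
Dlg2, coding bases 2020 to 2069: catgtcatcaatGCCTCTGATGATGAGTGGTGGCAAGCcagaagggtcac
Dlg3, coding bases 1654 to 1703: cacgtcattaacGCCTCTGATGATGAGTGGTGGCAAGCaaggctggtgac
Shank1, coding bases 580 to 629: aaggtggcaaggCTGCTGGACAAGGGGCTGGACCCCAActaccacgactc
Shank3, coding bases 613 to 662: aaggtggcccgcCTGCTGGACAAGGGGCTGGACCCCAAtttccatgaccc
Since no identical stretch reaches 50 bases, no whole read from these coding sequences fits 2 genes of the same family. Other coding transcripts were not compared in this step.

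Over all annotated exons, the share of distinct 50-base words found in any other gene was 0% for Dlg3 and Shank2, and at most 3.29%, for Shank1. Dlg4 and Dlg1 shared 8 such words, and no other pair of the 9 genes shared any. Shank1 overlaps 1700008O03Rik on the opposite strand over 339 exonic bases (3.22% of its exonic length), and Shank3 overlaps Gm15609 over 271 bases (2.95%). Dlgap1 overlaps AC079441.1 on the opposite strand over 92 bases, and Dlg2 overlaps Gm45159 and Gm45131 on its own strand over 75 and 150 bases. The strand setting of the counting is not given in the sources used here, and without strand the reads of a gene and its antisense partner cannot be told apart.

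Per kilobase of exon, Camk2a was by far the most abundant of the 9 genes. Its level was 200.2 ± 50.8 CPM per kb (SD, n = 10) in the first run and 465.9 ± 96.9 CPM per kb (SD, n = 12) in the second, and in both runs its lowest mouse lay above the highest mouse of every other gene. Dlgap1 stood at 25.6 ± 1.19 CPM per kb in the first run and 38.5 ± 2.71 in the second. Shank1 (27.6 ± 7.72 CPM per kb) was second in the first run but exceeded Dlgap1 in only 4 of its 10 mice, so the order of these neighbours did not hold beyond their spread.

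In the middle of the order, Dlg1 and Dlg2 exchanged places from mouse to mouse, Dlg1 being higher per kb in 6 of 10 and in 6 of 12 mice. Dlg4 had 7.43 ± 1.11 CPM per kb in the first run and 7.11 ± 1.02 in the second, close to the bottom in both, and Shank3 had 4.13 ± 1.08 and 9.01 ± 2.02. These ranks depend on the length used: the exons of Dlg4 cover 13251 bases over all its transcripts, against 3414 bases in its longest coding one, and those of Dlgap1 17890 against 4712. Divided by the length of the longest coding transcript alone, Dlg4 had 28.9 ± 4.30 CPM per kb in the first run and 27.6 ± 3.95 in the second and ranked 4 and 7 of 9, while Camk2a was at rank 1 in both runs by either length. Shank3 was at rank 9 in both runs by this length, and at rank 9 and rank 8 per kb of exon.

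None of the 9 genes passed the test between stimulated and control mice. With the run in the edgeR model, 0 of 9 had an adjusted p under 0.05, where 0 of all 17524 genes tested did (0%), and 0 of 9 had an unadjusted p under 0.05, where 2015 genes (11.5%) did. Of the 9 genes, 6 were lower and 3 higher in the stimulated mice, and their median log2 fold change was -0.05, beside 0.01 over all genes tested. The median size of the change, without its sign, was 0.07 for the 9 genes and 0.10 for all genes. The smallest adjusted p among the 9 was 0.503, for Dlg2, and the smallest over all genes was 0.241 (edgeR).

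**Figure D1:**
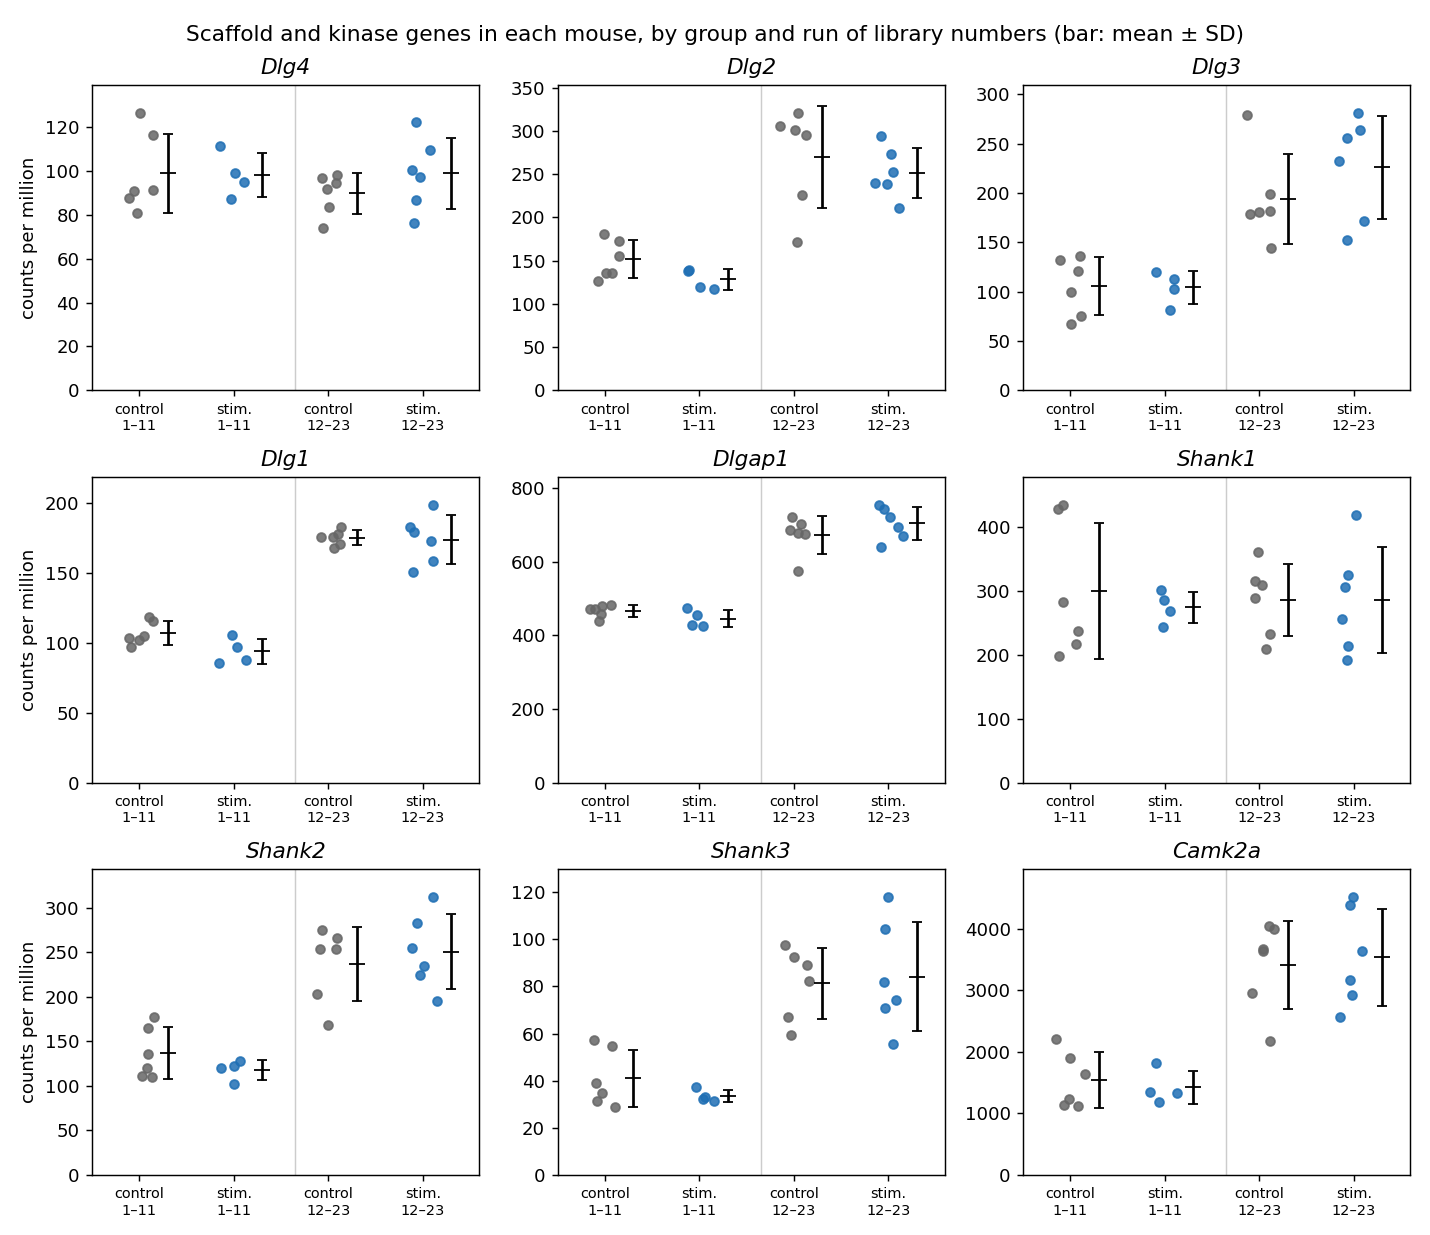
Level of each of the 9 genes (CPM, TMM normalized, axis from 0) in every mouse, with control mice in grey and stimulated mice in blue, split by run of library numbers (6, 4, 6 and 6 mice); black bars are mean ± SD. In every panel the blue and grey points of a run overlap, while in 7 of the 9 panels the second run lies higher than the first.

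Dlg4 (ENSMUSG00000020886, chr11:70016942-70047522 in mm10, plus strand) encodes PSD-95. In the first run its level ranged from 80.9 to 126.4 CPM in controls, with a median of 91.0, and was 94.8, 87.3, 98.9 and 111.4 CPM in the 4 stimulated mice. Second-run levels ranged from 73.9 to 98.2 CPM in controls (median 93.0) and from 76.3 to 122.3 CPM in stimulated mice (median 98.9). All 4 stimulated mice of the first run lay within the range of their controls, as did 3 of 6 in the second, with the other 3 above it. The log2 fold change was 0.07 (SE 0.09, 95% interval -0.10 to 0.25; edgeR adjusted p = 0.764), equal to 1.05-fold with an interval of 0.931 to 1.19.

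Dlg2 (ENSMUSG00000052572, chr7:90476672-92449247, plus strand), the gene of PSD-93, had the smallest p of the 9 genes in the fit with the run, though not in every alternative. For example, Dlg1 had the smaller p without controls 1 and 2 (0.0519 against 0.189), in the exact permutation test (0.068), with the replicate block (0.102 against 0.219) and with at least 10 counts in every mouse (0.0619 against 0.0792). Its level was 126.9 to 181.0 CPM (median 146.2) in the first-run controls and 138.7, 116.7, 119.2 and 138.6 CPM in the stimulated mice. Second-run controls ranged from 171.1 to 321.2 CPM (median 298.4) and the stimulated mice from 210.5 to 294.2 CPM (median 246.3). All 10 stimulated mice, 4 of 4 and 6 of 6, lay below the median of the controls of their run, but only 2 of them below the lowest control. The log2 fold change was -0.16 (SE 0.09, interval -0.36 to 0.03; edgeR unadjusted p = 0.0934, adjusted p = 0.503). The exact permutation test over all 194040 exchanges of labels within the runs, two-sided, gave p = 0.136 for a mean log2 difference of -0.15.

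Which mice were counted decided on which side of 0.05 the unadjusted p of Dlg2 fell. Leaving out control 9, the lowest control of the second run and the mouse with the most oligodendrocyte marker reads, moved the log2 fold change to -0.23 (unadjusted p = 0.00587). Without controls 9 and 11 it was -0.22 (p = 0.0106, adjusted p = 0.625 in edgeR), 1 of 9 genes against 7.73% of all genes. Without control 8 it was -0.20 (p = 0.0368) and without stimulated mouse 10 also -0.20 (p = 0.0393). Without controls 1 and 2, the mice with the highest mitochondrial share, it was -0.12 (p = 0.189), and 0 of 9 genes had a p under 0.05 against 8.21% of all genes.

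Dlg3 (ENSMUSG00000000881, chrX:100767722-100818410, plus strand), the gene of SAP102, had the largest positive estimate in the fit with the run, though not in every alternative. In library numbers 1 to 11 only, the estimate of Dlg4 was larger (0.00522 against -0.00327). In the first run Dlg3 ranged from 67.2 to 136.6 CPM in controls (median 110.3) and was 82.0, 112.9, 119.6 and 102.9 CPM in the stimulated mice, all within that range. Controls of the second run ranged from 144.1 to 279.0 CPM (median 180.9) and its stimulated mice from 152.9 to 281.4 CPM (median 243.8). There, 4 of 6 stimulated mice had 232.2 CPM or more, and the other 2 lay below every control but 1. The log2 fold change of 0.12 (SE 0.13, interval -0.16 to 0.39; edgeR adjusted p = 0.755) was smaller than the spread between mice.

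Dlg1 (ENSMUSG00000022770, chr16:31663443-31875129, plus strand), the gene of SAP97, was among the steadiest of the 9. Its level was 97.3 to 119.0 CPM (median 104.2) in the first-run controls and 88.1, 105.6, 97.0 and 85.4 CPM in the stimulated mice, 3 of which were below every control. The second-run level was 168.1 to 183.4 CPM (median 176.2) in controls and 150.6 to 198.9 CPM (median 176.0) in stimulated mice, which spread to both sides of the controls. With a log2 fold change of -0.09 (SE 0.06, interval -0.21 to 0.03; edgeR unadjusted p = 0.124, adjusted p = 0.538), the difference did not pass, and the exact permutation test within the runs gave p = 0.068. Without stimulated mouse 7, the highest of its group, it was -0.12 (unadjusted p = 0.0418).

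Dlgap1 (ENSMUSG00000003279, chr17:69969073-70821413, plus strand), the bridge between MAGUKs and Shanks, varied least. It ranged from 439.6 to 481.7 CPM (median 471.9) in the first-run controls, against 428.4, 455.2, 473.4 and 424.2 CPM in the stimulated mice. Second-run controls ranged from 574.0 to 723.0 CPM (median 682.3) and stimulated mice from 640.7 to 754.7 CPM (median 708.2). The lowest control, control 9, lay apart from the other 5, which had at least 676.5 CPM. Its log2 fold change was 0.0050 (SE 0.05), and the interval of -0.10 to 0.11 was the narrowest of the 9. Its sign turned when most single mice were left out, so no direction is given.

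No Shank gene passed the test between the groups. Shank1 (ENSMUSG00000038738, chr7:44310253-44360572, plus strand) ranged from 198.3 to 435.1 CPM (median 260.2) in the first-run controls, with controls 1 and 2 at 435.1 and 428.8 CPM and the other 4 at 282.2 CPM or less. The first-run stimulated mice had 301.2, 244.4, 268.6 and 285.8 CPM. Shank1 in the second run ranged from 209.0 to 360.5 CPM in controls (median 299.0) and from 191.7 to 418.5 CPM in stimulated mice (median 281.8). Its log2 fold change was -0.06 (SE 0.14, interval -0.35 to 0.24; edgeR adjusted p = 0.905).

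Shank2 (ENSMUSG00000037541, chr7:144001928-144424494, plus strand) ranged from 109.4 to 177.9 CPM (median 127.9) in the first-run controls and was 128.3, 102.3, 119.9 and 121.8 CPM in the stimulated mice. The second-run ranges were 168.7 to 275.4 CPM (median 253.4) and 195.4 to 312.2 CPM (median 244.6). The groups overlapped in both runs, and the log2 fold change was -0.05 (SE 0.10, interval -0.26 to 0.17; edgeR adjusted p = 0.893).

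Shank3 (ENSMUSG00000022623, chr15:89499623-89560261, plus strand), a gene known for its deletion or mutation in a form of autism, was the least counted of the 9. It had 28.9 to 57.4 CPM (median 37.0) in the first-run controls and 37.2, 31.3, 32.0 and 33.0 CPM in the stimulated mice. Second-run controls ranged from 59.3 to 97.6 CPM (median 85.7) and stimulated mice from 55.7 to 118.0 CPM (median 78.1). A log2 fold change of -0.10 was estimated (SE 0.13, interval -0.38 to 0.17; edgeR adjusted p = 0.795). Without controls 1 and 2 the estimates of all 3 Shank genes turned positive, to 0.07, 0.03 and 0.01 in the order of their numbers.

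Camk2a (ENSMUSG00000024617, chr18:60925618-60988152, plus strand) ranged from 1121 to 2216 CPM (median 1443) in the first-run controls and was 1818, 1333, 1347 and 1192 CPM in the stimulated mice, all within the control range. Second-run controls ranged from 2185 to 4050 CPM (median 3659) and stimulated mice from 2571 to 4519 CPM (median 3408), with 2 of 6 above every control. The log2 change was -0.02 (SE 0.13, interval -0.30 to 0.25; edgeR adjusted p = 0.962), and without controls 1 and 2 it was 0.07. The viral construct carried a CaMKIIa promoter and not the Camk2a coding sequence.

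**Figure D2:**
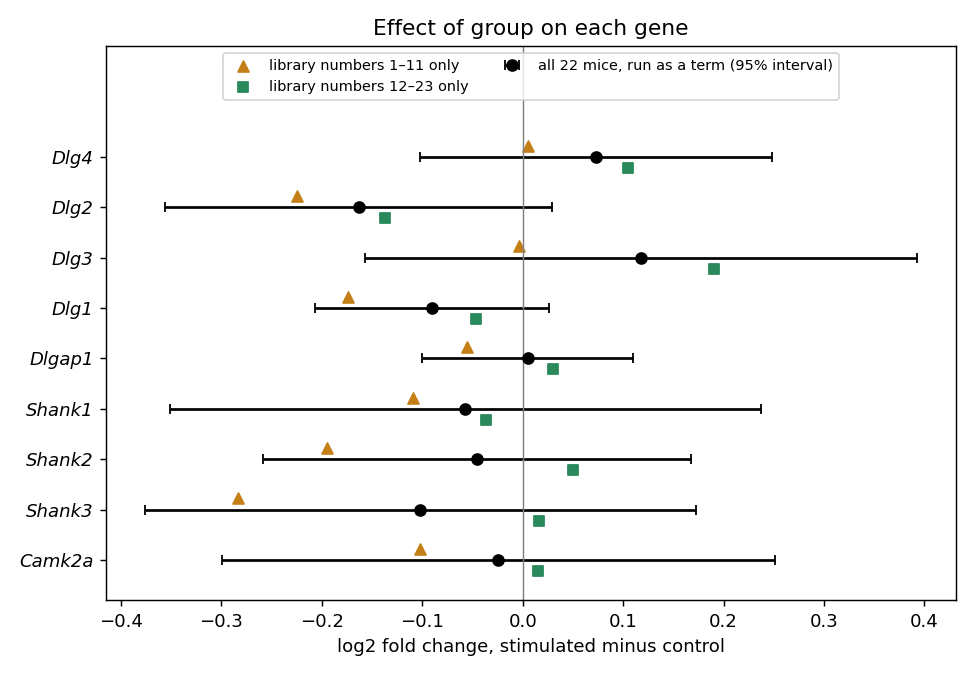
Log2 fold change (stimulated minus control) of the 9 genes from the edgeR fit with the run as a term (black points with 95% intervals, 22 mice), beside the estimates from library numbers 1 to 11 (orange triangles, 10 mice) and 12 to 23 (green squares, 12 mice). All 9 intervals include 0, and the estimate of the second run lies to the right of that of the first for every gene. Over all 17524 genes tested, the difference of the effect between the runs was below 0 for 7370 (edgeR).

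Over the 9 genes and 22 mice, the 95% intervals of the fold change reached from 0.771-fold (Shank3) to 1.31-fold (Dlg3), so a change of 2-fold lay outside all of them. They were tightest for Dlgap1, from -6.72% to 7.94%, and Dlg1, from -13.4% to 1.86%. For Camk2a they ran from -18.8% to 19.0% and for Shank1 from -21.6% to 17.9%.

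Within each run taken alone, again 0 of 9 genes had an unadjusted p under 0.05, where 5.56% of all genes in the first run and 12.4% in the second did. In the first run 8 of the 9 estimates were below 0, led by Shank3 at -0.28 (SE 0.18), and in the second 3 of 9 were, led by Dlg2 at -0.14 (SE 0.14). Of all 17524 genes, 8549 were below 0 in the first run and 8762 in the second. The difference of the effect between the runs was positive for all 9 genes, from 0.12 (Shank1) to 0.35 (Shank3) on the log2 scale. Over all 17524 genes it leaned the same way, with a median of 0.04 and 7370 genes below 0. For 0 of 9 did that difference have an unadjusted p under 0.05, where 8.01% of all genes did; the smallest was 0.128, for Dlg1 (edgeR adjusted p = 0.724). The 9 estimates come from the same mice and their genes vary together, so the shared sign is not 9 separate observations.

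Model choice moved single genes across 0.05. With the group alone in the model 0 of 9 genes had an unadjusted p under 0.05 (3.61% of all genes), with the run and 1 surrogate variable 2 of 9 did (Dlg2, p = 0.0462, and Dlg3, p = 0.0149; 20.0% of all genes), and with limma voom and quality weights 1 of 9 did (Dlg2, p = 0.0132; 16.3% of all genes). In none of these fits did any of the 9 have an adjusted p under 0.05.

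The proportions within the families can be compared free of depth. Per kb of exon, Dlg3 made up 39.9% ± 9.05 (SD, n = 6) of the summed Dlg1 to Dlg4 level in the first-run controls and 42.4% ± 4.14 (SD, n = 4) in the stimulated mice, and 45.2% ± 6.68 and 49.2% ± 6.93 (both n = 6) in the second run. The share depended on the length used: per kb of the longest coding transcript, Dlg3 took 23.1% ± 6.71 in the first-run controls, below the 31.2% ± 5.09 of Dlg4, and 28.3% ± 5.53 in those of the second run (n = 6 each). Per kb of exon, Shank1 made up 61.8% ± 2.75 of the Shank level in the first-run controls and 46.8% ± 1.56 in those of the second. Of the Camk2a and Camk2b sum, Camk2a took 71.8% ± 9.20 in the first-run controls and 70.5% ± 4.31 in the stimulated mice, and 80.2% ± 5.17 and 79.5% ± 5.38 in the second run. Of the 18 shares compared within a run, 1 had groups that did not overlap: Shank3 took 9.56% to 10.1% of the Shank level in the first-run controls and 8.53% to 9.43% in the stimulated mice. Second-run ranges were 14.3% to 16.0% and 14.3% to 16.6%, and overlapped. The shares of a family add up to the whole, so the 18 are not separate comparisons. How often such shares of other genes would set these groups apart was not examined, and these shares were not tested.

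The run separated the genes far more than the stimulation did. Of the 9 genes, 7 were higher in the second run than in the first with an edgeR adjusted p under 0.05, where 68.1% of all genes tested differed in either direction. At an unadjusted edgeR p under 0.05, 6082 of the 17524 genes were higher in the second run and 6261 lower. A rise as large as that of Camk2a was found in 3.34% of all genes, and as that of Dlgap1 in 20.1%. Camk2a rose 2.33-fold, Shank3 2.20-fold, Dlg3 1.98-fold, Shank2 1.90-fold, Dlg2 1.86-fold, Dlg1 1.73-fold and Dlgap1 by 0.59 on the log2 scale. The levels of Dlg3, Dlg1 and Dlgap1 did not overlap between the runs at all, as was the case for 26.1% of all genes. Dlg4 (log2 difference -0.07, SE 0.09, adjusted p = 0.457) and Shank1 (-0.01, SE 0.14, adjusted p = 0.933) did not pass the same edgeR test, although the other Dlg and Shank genes did. The runs each hold both groups, and what else set them apart is not in the labels.

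Within the groups the 9 genes did not vary independently. After the mean of each group within each run was subtracted from log2 CPM, Shank1 and Shank3 had a Pearson correlation of 0.97 over the 22 mice (Spearman 0.98, and 0.96 without the 2 mice farthest from the median), Shank2 and Shank3 one of 0.96, and Shank3 and Camk2a one of 0.93. The 6 genes Dlg4, Dlg2, Shank1, Shank2, Shank3 and Camk2a were positively correlated in all 15 pairs, from 0.74 to 0.97. Dlg3 ran the other way: its correlation was -0.88 with Shank1, -0.87 with Shank3 and -0.72 with Dlg4. These values are descriptions over mice that share libraries, depth and normalization, and the set of 6 was named after its correlations were seen.

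**Figure D3:**
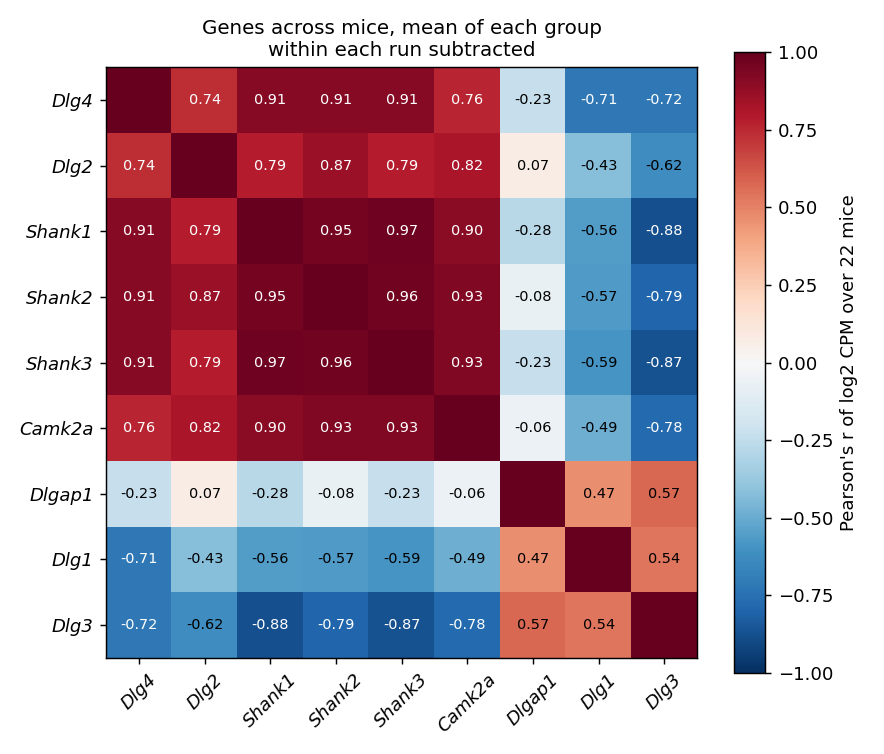
Pearson correlation of log2 CPM between each pair of the 9 genes over 22 mice, with the mean of each group within each run subtracted. The block of red cells holds Dlg4, Dlg2, the 3 Shank genes and Camk2a, between which r is 0.74 to 0.97, and the bottom rows show Dlg3 and Dlg1 negatively correlated with all 6.

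The correlations among the set of 6, and of these with Dlg3 and Dlg1, had the same sign in both runs. The correlation of Shank1 and Shank3 was 0.99 in the first run and 0.96 in the second, and that of Shank1 and Dlg3 -0.95 and -0.81. Dlg1 had 0.54 with Dlg3 and -0.71 with Dlg4 over all mice, and Dlgap1 had 0.57 with Dlg3. Dlgap1 changed sign between the runs with 3 genes: its correlation was -0.70 and 0.31 with Dlg2, -0.58 and 0.15 with Shank2, and -0.45 and 0.13 with Camk2a. The size of the variation differed too. The residual SD on the log2 scale was 0.38 for Shank1, 0.35 for Dlg3 and Camk2a and 0.34 for Shank3, beside 0.25 for the median gene, but 0.11 for Dlg1 and 0.09 for Dlgap1, a value that 98.6% of all genes tested reached or exceeded.

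**Figure D4:**
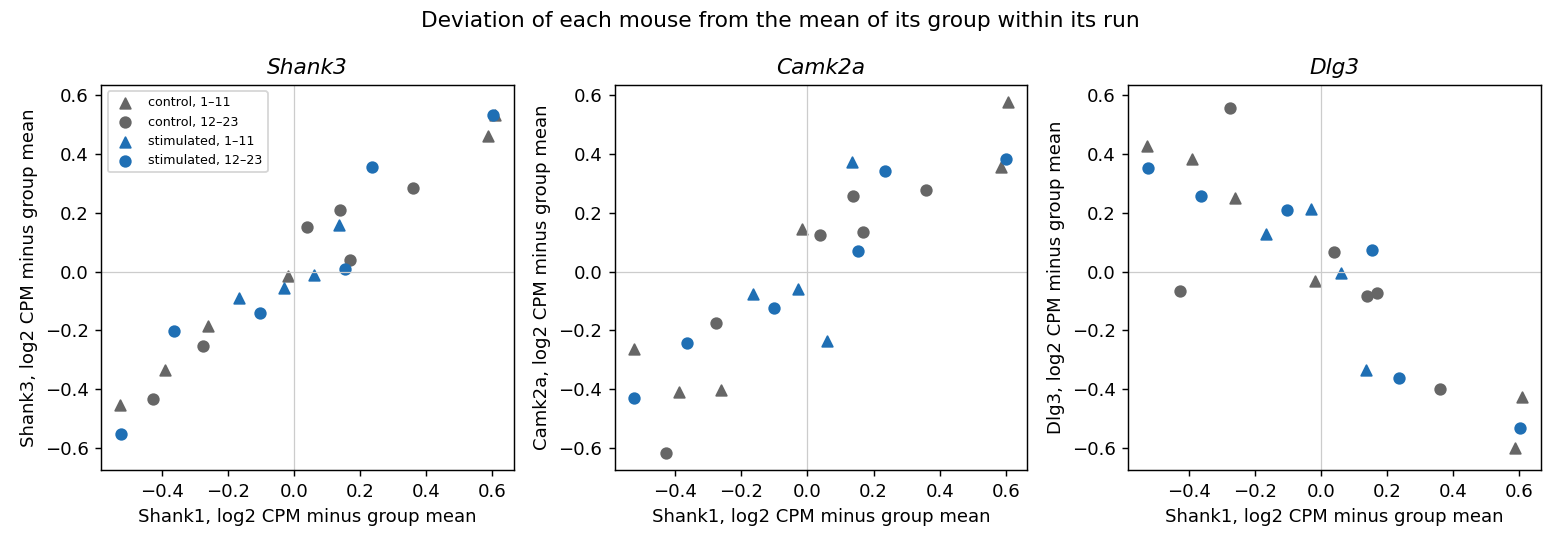
Deviation of each mouse from the mean of its group within its run, in log2 CPM, for Shank1 (horizontal axis) against Shank3, Camk2a and Dlg3 (vertical axes); triangles are library numbers 1 to 11, circles 12 to 23, grey controls and blue stimulated mice. Shank3 and Camk2a rise with Shank1 (r = 0.97 and 0.90) and Dlg3 falls (r = -0.88), with both groups along the same line.

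Several mice stood far from their group mean in more than 1 gene. Controls 1 and 2 and stimulated mouse 10 were 0.59 to 0.61 above their group mean in Shank1 on the log2 scale and at -0.60 to -0.42 in Dlg3, while control 6 and stimulated mouse 7 were at -0.53 and -0.52 in Shank1 and at 0.42 and 0.35 in Dlg3. The ends were not the same mice in every gene: control 8 was highest in Dlg3 (0.55), and control 9 was lowest in Dlg2 (-0.62), Shank2 (-0.47), Camk2a (-0.61) and Dlgap1 (-0.23). Other measures of the libraries moved with this. The mitochondrial share, centred in the same way, had a correlation of 0.82 with Shank1 and -0.81 with Dlg3, and the log2 total count one of -0.21 and 0.27. The summed astrocyte markers had 0.91 with Shank1, 0.92 with Camk2a and -0.89 with Dlg3, and the summed neuronal markers -0.83, -0.81 and 0.88. The summed oligodendrocyte markers had 0.30 with Shank1 and -0.60 with Dlg3. The first principal component of the other genes, which held 20.7% of their residual variance, had a correlation of 0.88 with Shank1 and -0.97 with Dlg3. The part of these measures in the pattern was not tested.

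The genes most like each of the 9 across mice were as follows. For each Shank gene another Shank gene came first, out of all genes tested, and Slc1a2, the main glutamate transporter of astrocytes, was second for Shank1 (r = 0.97, n = 22). Dlg4 was most like Ddn, the gene of dendrin (r = 0.95), and Ppp1r9b, the gene of the spine protein spinophilin (r = 0.94). Dlg2 was most like Map2, a microtubule protein of dendrites (r = 0.94), and Ctnnd2 (r = 0.92). Camk2a was most like Wsb2 and Psd (both r = 0.97). On the other side, Dlg3 was most like Cbfa2t2 and Copg1 (both r = 0.98), Dlg1 like Tmem65 (r = 0.88) and Fbxo45 (r = 0.87), and Dlgap1 like Prmt8 (r = 0.87) and Nptxr (r = 0.86).

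The sequences before the transcription starts of Shank3 and Dlg3, which varied in opposite directions across mice (r = -0.87), are shown in RefSeq on GRCm38.p6, over the 250 bases before each listed start. Shank3 has 1 listed start and Dlg3 has 2. The windows of Shank1, whose correlation with Dlg3 was -0.88, and of Shank2 were not analysed here. Capitals mark a GC box (GGGCGG on either strand) or an EGR site (GCGTGGGCG on either strand).
Shank3, chr15:89499358-89499607, plus strand: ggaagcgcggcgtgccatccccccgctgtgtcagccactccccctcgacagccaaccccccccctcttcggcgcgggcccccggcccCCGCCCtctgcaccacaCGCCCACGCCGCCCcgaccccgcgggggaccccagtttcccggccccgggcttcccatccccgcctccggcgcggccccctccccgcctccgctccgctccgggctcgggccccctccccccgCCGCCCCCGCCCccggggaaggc
Dlg3 start 1, chrX:100774245-100774494, plus strand: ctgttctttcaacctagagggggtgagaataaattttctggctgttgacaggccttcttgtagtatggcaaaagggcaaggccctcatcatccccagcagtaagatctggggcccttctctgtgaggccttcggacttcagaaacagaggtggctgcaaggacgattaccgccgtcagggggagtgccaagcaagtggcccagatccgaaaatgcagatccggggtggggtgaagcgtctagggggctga
Dlg3 start 2, chrX:100777021-100777270, plus strand: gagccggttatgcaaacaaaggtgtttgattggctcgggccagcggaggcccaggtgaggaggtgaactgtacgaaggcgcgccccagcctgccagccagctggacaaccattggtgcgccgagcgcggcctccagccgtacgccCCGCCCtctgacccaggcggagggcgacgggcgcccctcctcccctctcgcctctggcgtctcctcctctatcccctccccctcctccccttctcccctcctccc
The Shank3 window is 82.4% G and C, a value that 0.578% of 32851 windows reached, with 31 CpG, 4 GC boxes and 1 EGR site, which overlaps a GC box. The Dlg3 windows are 55.2% and 69.2% G and C with 7 and 19 CpG, and hold 0 and 1 GC box. A GC box was found in 32.7% of all windows and an EGR site in 0.536%. These matches are descriptions of the letters only, and the contrast is between these windows and not between the sets of genes: the 3 windows of Dlg2, which varied with Shank3, are 45.2%, 45.6% and 42.8% G and C with 0 GC boxes, below those of Dlg3. The longest coding transcripts held 62.4% G and C for Shank3, 61.4% for Shank1, 55.7% for Dlg4, 55.1% for Camk2a, 55.0% for Shank2 and 44.3% for Dlg2, and 53.7% for Dlgap1, 52.0% for Dlg3 and 45.2% for Dlg1. Over the 14610 tested genes with a coding transcript, the Spearman correlation of this share with a gene's correlation with the first component was 0.11, a description over genes, which are not independent.

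A wider list of 43 other postsynaptic density genes, all of which passed the count minimum, was examined in the same way. Under the edgeR model with the run, 2 of 43 had an unadjusted p under 0.05, 1 in each direction, against the 11.5% of all genes given above, and 0 of 43 an adjusted p under 0.05. Their median log2 fold change was 0.03. By role, 12 of 21 adaptors, 5 of 7 actin linkers, 4 of 8 regulators of small GTPases and 7 of 7 paralogs of the 9 genes were higher in the stimulated mice, as were 9222 of all 17524 genes. Of the paralogs 3 were below 0 in the first run alone (Camk2d, Dlgap2 and Dlgap3) and 2 in the second (Dlg5 and Camk2g).

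**Figure D5:**
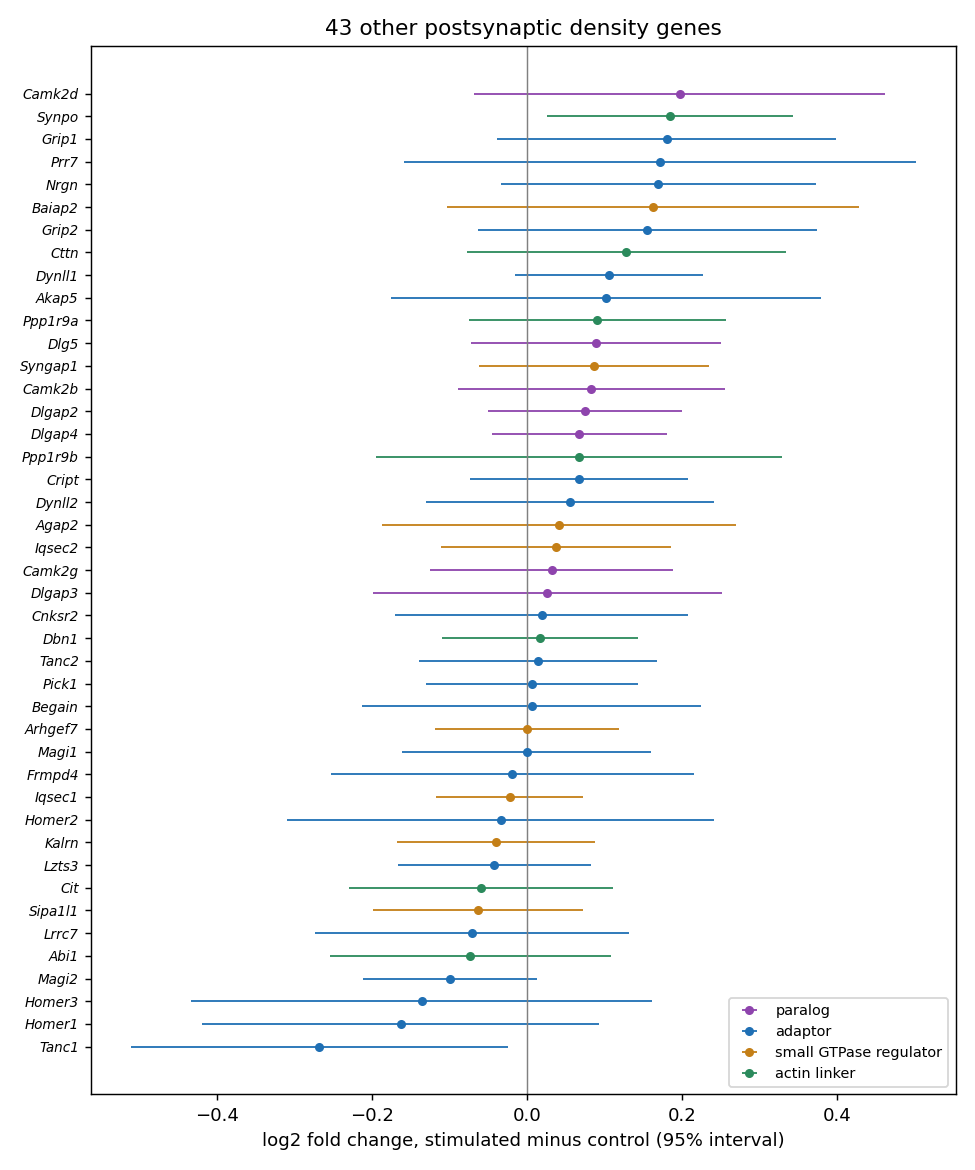
Log2 fold change (stimulated minus control) of the 43 other postsynaptic density genes with 95% intervals from the edgeR fit with the run as a term, coloured by role and ordered by value. Intervals of 41 genes include 0, and those of Synpo (0.18) and Tanc1 (-0.27) do not.

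Synpo, which encodes the spine apparatus protein synaptopodin, had 103.4 to 153.7 CPM (median 129.4) in the first-run controls and 124.6 to 144.1 CPM in the stimulated mice. Second-run mice had 181.8 to 258.1 CPM (median 217.1) among controls and 220.7 to 290.2 CPM (median 267.8) among stimulated mice. The log2 change was 0.18 (SE 0.08; edgeR unadjusted p = 0.0245, adjusted p = 0.375). Tanc1, an adaptor that binds PSD-95, had 9.51 to 12.9 CPM in the first-run controls and 8.56 to 13.1 CPM in the stimulated mice, and in the second run 26.8 to 50.7 CPM (median 31.2) and 18.8 to 33.4 CPM. Its log2 fold change was -0.27 (SE 0.12; edgeR unadjusted p = 0.0321, adjusted p = 0.399), with -0.04 in the first run and -0.47 in the second. Neither gene had an unadjusted p under 0.05 without control 11, without stimulated mouse 5 or without stimulated mouse 6. Without controls 9 and 11 the 1 gene of the 43 below 0.05 was Magi2.

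The next smallest p among the 43 outside the paralogs were those of Magi2 (log2 fold change -0.10, edgeR unadjusted p = 0.0796), Dynll1 (0.11, p = 0.0847), Nrgn (0.17, p = 0.0983), Grip1 (0.18, p = 0.103), Grip2 (0.15, p = 0.157) and Homer1 (-0.16, p = 0.201). They were grouped under adaptors in the list used here, and Nrgn also stood among the excitatory neuron markers. Grip1 and Grip2 bind AMPA receptors, and Homer1 links Shank proteins to metabotropic glutamate receptors. The estimates of Grip2 and Homer1 did not point the same way in both runs: 0.51 (SE 0.14) and -0.15 (SE 0.12) for Grip2, and -0.44 (SE 0.14) and 0.03 (SE 0.16) for Homer1.

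The paralogs of the 9 genes were also tested one by one. Camk2d had the largest estimate at 0.20 (SE 0.13; edgeR unadjusted p = 0.139), with -0.06 (SE 0.16) in the first run and 0.38 (SE 0.16) in the second. It was followed by Dlg5 at 0.09 (SE 0.08), Camk2b at 0.08 (SE 0.08), Dlgap2 at 0.07 (SE 0.06), Dlgap4 at 0.07 (SE 0.05), Camk2g at 0.03 and Dlgap3 at 0.03. None passed the test, the smallest adjusted p being 0.551 (edgeR). Camk2b, the beta subunit that binds actin beside the alpha subunit of Camk2a, was 0.08 higher, with an interval of -0.09 to 0.25.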

How the data were processed

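RNA of bulk ACC was converted to cDNA with SMART-Seq v4 and read in single 50-base reads. Per the labels and the submitters' processing notes, the authors trimmed reads with cutadapt 1.10, aligned them with STAR 2.5.3a to mm10 and counted uniquely aligned reads with HTSeq 0.6.1p1; the deposited values used here are the resulting whole-number counts per gene and mouse. The deposited table also holds counts divided by size factors and the fold changes and p-values of the authors' own comparison (DESeq2 1.22.1), which were not used.

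Counts were fitted with edgeR 4.0.16 in R 4.3.3 (TMM, glmQLFit, glmQLFTest) with terms for run of library numbers and group, over the 17524 genes that reached 10 counts in 10 or more mice. Adjustment was by Benjamini-Hochberg over these genes. SE is the log2 fold change over the square root of F. CPM use TMM library sizes, and log2 CPM a prior count of 2. The study used RNA integrity and batch as covariates. Neither is in the labels, and the supplementary table in which the paper places them was not used here. The run stood in for batch only, and RNA integrity was not adjusted for. The p-values of the reported fit set the difference between the groups against the spread between mice, with the run accounted for. The fit was tested on simulated data. There, 36.7% of genes changed 1.25-fold and 63.3% of those changed 1.5-fold had an edgeR adjusted p under 0.05, with 6 false calls. All 231 pairs of libraries differed by more than sampling noise (mean chi-square per gene of 10.0 or more). Genes were matched to GENCODE M21 (37772 of 37786 found). Alternatives were other normalizations, tests, count minimums, runs and left-out mice; leaving out controls 9 and 11, or 1 and 2, was chosen after seeing the data. The genes and lists were chosen with earlier results of these data known. Named are the 9 genes, their paralogs, the 8 other listed genes with the smallest p, and for each of the 9 the 2 genes with the highest correlation across mice. The series design text gives 23 samples, and 22 are labelled.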

Additional observations from a re-analysis of the deposited data

Results flagged for a closer look

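Among the 9 genes, 1 value stood apart from its group by Dixon's criterion, out of 36 groups looked at, of which chance flags about 1 in 20: Dlgap1 was at 574.0 CPM in control 9, against 676.5 to 723.0 CPM in the other 5 controls of the second run. The same mouse had the highest summed level of oligodendrocyte markers, 19204 CPM; whether this bears on the value was not tested.

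Among the other genes named, the effect of the group differed between the runs of library numbers for 2 of 15 at an unadjusted p under 0.05 by the interaction in edgeR, which 8.01% of all genes had. The log2 fold change of Grip2 was 0.62 lower in the second run than in the first (a difference of -0.62, unadjusted p = 0.00207, adjusted p = 0.545), and that of Homer1 was 0.52 higher (unadjusted p = 0.0343, adjusted p = 0.603). Neither passed the correction over all genes.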

How the results depend on the processing

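No alternative gave any of the 9 genes an adjusted p under 0.05. The number of all genes below that level was 0 in the reported fit, 66 with the run and 1 surrogate variable, 33 by the DESeq2 Wald test, and 1 with limma voom, 1 without controls 9 and 11, and 0 to 1 when single mice were left out (1 without control 9). The count of the 9 with an unadjusted p under 0.05 was 2 with the surrogate variable (20.0% of all genes), 1 with voom (16.3%), 1 without controls 9 and 11 (7.73%) and 0 to 1 without single mice (8.64% to 13.9%; 1 without control 8 or 9 or stimulated mouse 7 or 10, at 13.5%, 9.84%, 12.5% and 10.8%). The number that were lower, 6 as reported, was 2 with the group only, 3 in library numbers 12 to 23 only, 3 without controls 1 and 2, and 5 to 7 without single mice. Of the 43 other genes, 2 as reported had an unadjusted p under 0.05, and this was 0 with the group only (3.61% of all genes), 9 with the surrogate variable, 4 with voom, 4 in each run alone (5.56% and 12.4%), 1 without controls 9 and 11, 1 without controls 1 and 2 (8.21%), and 0 to 4 without single mice, beside the shares just given.

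Estimates turned sign as follows. With the group only, Dlg1 was 0.00666, Shank2 0.0833, Shank3 0.0619 and Camk2a 0.118. In library numbers 1 to 11 only, Dlg3 was -0.00327 and Dlgap1 -0.0558. In 12 to 23 only, Shank2 was 0.0499, Shank3 0.0164 and Camk2a 0.0149. Without controls 1 and 2, Shank1 was 0.0748, Shank2 0.0288, Shank3 0.00985, Camk2a 0.0714 and Dlgap1 -0.0179. Dlgap1 was also -0.0394 without controls 9 and 11, -0.00703 with at least 10 counts in every mouse and -0.00226 as a mean difference of log2 CPM. Without single mice Dlgap1 ranged from -0.0318 to 0.00748 and Camk2a from -0.0919 to 0.022. The others kept their sign, Dlg4 between 0.0231 and 0.103, Dlg3 0.063 and 0.166, Shank1 -0.143 and -0.00851, Shank2 -0.106 and -0.0149, Shank3 -0.184 and -0.0577, Dlg1 -0.118 and -0.0784 and Dlg2 -0.231 and -0.144. The cause of these turns was not tested. The labels do not say whether mice with the same replicate number were paired. Over the 8 same-numbered pairs within a run the mean correlation of deviations was 0.05, and 3 exceeded 0.1. For other control and stimulated mice within a run the mean was -0.0085. So few pairs cannot decide the question. The replicate block, fitted together with the run, left 0 of 9 genes below an unadjusted 0.05 and 0 genes below an adjusted 0.05. The lowest count of any of the 9 in a library was 1012; how far depth limits the intervals was not tested.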
